A study of Arabidopsis thaliana with 10 samples.

Results

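The 10 genes described here are SPL (SQUAMOSA PROMOTER BINDING PROTEIN-LIKE) transcription factor genes of *Arabidopsis thaliana* that carry a target site of the microRNA miR156: SPL2 (AT5G43270), SPL3 (AT2G33810), SPL4 (AT1G53160), SPL5 (AT3G15270), SPL6 (AT1G69170), SPL9 (AT2G42200), SPL10 (AT1G27370), SPL11 (AT1G27360), SPL13A (AT5G50570) and SPL15 (AT3G57920). They were taken by name from 27444 annotated protein-coding genes, and a peak was given to a gene when its summit lay in the gene or within 1 kb upstream of it. By this rule 16 of the 38540 peaks in the 4 lists belonged to the 10 genes. H3K27ac, an acetylation of histone H3 found on active genes, was mapped by ChIP-seq in inflorescences of a pAP1::AP1-GR ap1 cal line in the Ler background. In this line the floral regulator AP1, fused to a steroid receptor domain and driven by its own promoter, starts flower formation in step when dexamethasone is applied. All libraries carried the same transgene and the ap1 and cal mutations. Tissue was taken at 0 days (S0, inflorescence meristem before induction), 2 days (S2), 4 days (S4) and 8 days (S8) of daily treatment, with 2 libraries at each stage and 2 input libraries labelled as stages 2 and 4.

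SPL proteins bind DNA through an SBP domain and promote both the change from juvenile to adult growth and flowering. In young plants miR156 is abundant and holds their transcripts down by pairing with a site in the mRNA, and as the plant ages miR156 declines and SPL activity increases. SPL9 and its relatives then activate MIR172 genes and regulators of flowering such as SOC1 and FUL, while SPL3, SPL4 and SPL5 act on LFY, AP1 and FUL in the forming flower.

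The sequences that define the group are shown first, because the position of the miR156 site on each gene is set beside its peaks below. The mature miRNA is identical in MIR156A to MIR156F, and 2 further annotated members, miR156i and miR156j, lie on the opposite strand within SPL4 and SPL9. Capitals mark the seed, bases 2 to 8 from the 5′ end:
miR156a-5p: uGACAGAAgagagugagcac
miR156i: uGACAGAAgagagagagcag
miR156j: uGACAGAAgagagagagcac

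The best match to miR156a-5p was searched on the sense strand of each spliced transcript (RefSeq annotation of TAIR10.1). The sites are written 5′ to 3′ as DNA, and capitals mark the bases opposite the seed:
SPL3, chr2:14305878-14305897, plus strand, 3′ UTR: ttgcttactctcTTCTGTCa
SPL4, chr1:19807090-19807109, plus strand, 3′ UTR: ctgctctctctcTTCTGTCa
SPL5, chr3:5140598-5140617, minus strand, 3′ UTR: ccgctctctctcTTCTGTCa
SPL9, chr2:17589066-17589085, plus strand, coding exon 3: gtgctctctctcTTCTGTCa

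SPL2, SPL6, SPL10, SPL11, SPL13A and SPL15 carry the same 20 bases as SPL9, each in its last coding exon, so 7 members have the site in coding sequence and 3 have it in the 3′ UTR. SPL13B (AT5G50670), a copy of SPL13A that is not among the 10, carries these 20 bases too. The coding sites had 1 mismatch to miR156a-5p over 20 bases, those of SPL3 and SPL4 had 2 and that of SPL5 had 3, and none of the 10 had a mismatch opposite the seed. In the 6 SPL genes not known as miR156 targets (SPL1, SPL7, SPL8, SPL12, SPL14 and SPL16), the best match had from 6 to 8 mismatches, with from 1 to 3 of them opposite the seed. The annotated miR156i and miR156j occupy exactly the bases of the SPL4 and SPL9 sites on the other strand.

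Peaks came and went at these genes between stages. At S0, 6 of the 10 members had a peak (SPL3, SPL4, SPL5, SPL6, SPL9 and SPL13A), beside 43.8% of all protein-coding genes. At S2 none of the 10 had one, beside 34.5% of all genes. At S4, 3 had one (SPL10, SPL11 and SPL13A), beside 36.4%. At S8, 5 had one (SPL3, SPL4, SPL5, SPL9 and SPL13A), beside 36.6%. In a group of 10 genes, the counts at S0, S4 and S8 lay too near these shares to be read as a result about the members. The count of 0 at S2 lay furthest below its share. With that count of 0, no member could have a peak at all 4 stages, as 26.7% of protein-coding genes had. SPL2 and SPL15 had no peak at any stage, as was the case for 51.6% of protein-coding genes. Each list was called by the authors on both replicates of a stage together, so there is no value per replicate, no error between replicates and no test of these counts.

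**Figure D1:**
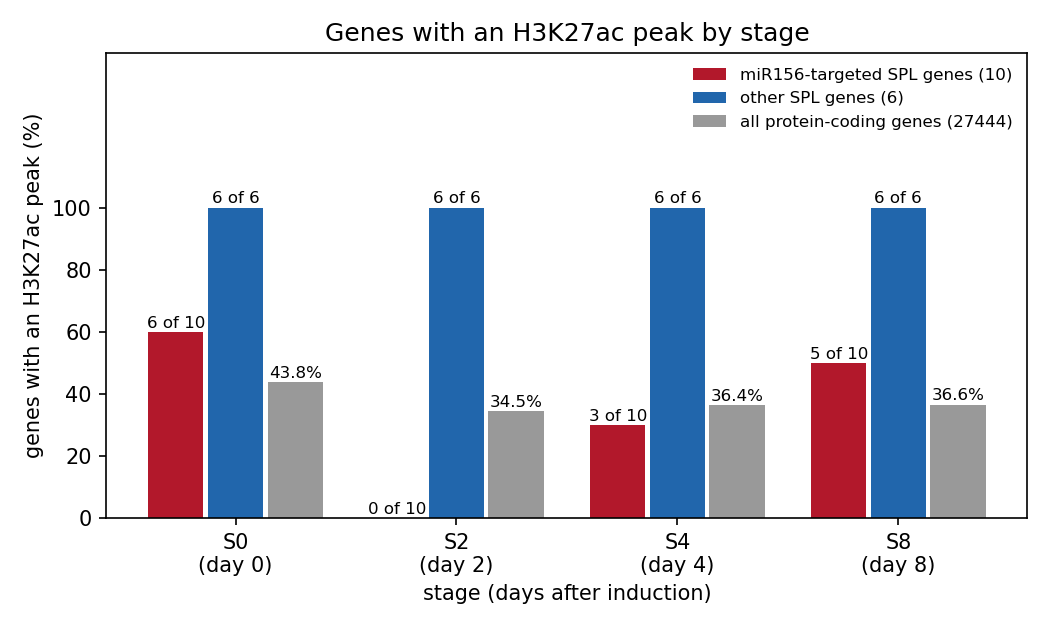
Share of genes with an H3K27ac peak (%, vertical axis) at each stage (horizontal axis), for the 10 miR156-targeted SPL genes (red), the 6 other SPL genes (blue) and all 27444 protein-coding genes (grey). The red bars stand at 6, 0, 3 and 5 of 10 genes from S0 to S8, while all 6 other SPL genes had a peak at every stage.

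A gene without a peak in a list may still carry the mark below the level at which a peak is kept. In tissue of many cell types, fewer cells with the mark and less of the mark per cell cannot be told apart. The lists held 11583, 8608, 9114 and 9235 peaks at S0, S2, S4 and S8, so that of S2 was the shortest, and its highest −log10 p was 198, against 3150, 759 and 587 in the lists of S0, S4 and S8. The lowest −log10 p lay between 11.5 and 11.7 in all 4 lists. With every list cut to the 8608 peaks of the S2 list, 4, 2 and 5 members had a peak at S0, S4 and S8, beside 34.5%, 34.6% and 34.4% of all genes. This leaves the S2 list as it was, so the part of list length in the S2 count of 0 was not tested. The stage labels were set beside markers: the meristem gene STM had a peak at S0 and S2 only, the floral organ identity genes AP3 and SEP3 at S8 only, and TFL1, PI and AG had none at any stage.

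Of the 6 members with a peak at S0, all 6 lacked one at S2, beside 26.2% of all genes with a peak at S0. Only SPL6 also lacked one at S8, beside 22.7% of all genes with a peak at S0. The pattern of a peak at S0 and S8 and none between was shared by SPL3, SPL4, SPL5 and SPL9. These were 4 of the 5 members with a peak at both S0 and S8, beside 5.66% of all genes with a peak at both. As no member had a peak at S2, genes without one there are the closer base. Of all genes with a peak at S0 and S8 and none at S2, 527 lacked one at S4 and 857 had one. SPL10 and SPL11 were 2 of the 3 members with a peak at S4 that had one at no other stage, beside 2.2% of all genes with a peak at S4. Of all genes with a peak at S4 and none at S2, 220 had one at no other stage. A further 159 had one at S8, 491 at S0 and 857 at both. The 10 genes ran from 1072 to 3594 bp with a median of 2402 bp, against a median of 2078 bp for all protein-coding genes.

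SPL3, SPL4 and SPL5 encode the smallest proteins of the group (131, 174 and 181 amino acids), which hold little beyond the SBP domain. Each of these genes has 2 exons, and they lie at chr2:14305001-14306072 (SPL3, plus strand), chr1:19806263-19807705 (SPL4, plus strand) and chr3:5140365-5142323 (SPL5, minus strand). At S0 the SPL3 peak (chr2:14305211-14306147) was 937 bp wide with its summit 988 bp past the transcription start site (TSS), in the 3′ UTR. It had a fold enrichment of 2.36 over input, at percentile 7.17 of its list. A percentile is the peak's rank by fold enrichment, counted from the lowest, as a share of the list, with ties at their average rank. At S8 the SPL3 peak (chr2:14305237-14306157) was 921 bp wide and stood at percentile 26.3. The peaks began 210 and 236 bp past the TSS and ran beyond the 3′ end, covering 80.4% of the gene at S0 and 78.0% at S8. They shared 911 bp, but the S8 summit lay 455 bp nearer the TSS, in coding exon 1. A long noncoding RNA gene, AT2G33815, lies on the opposite strand over 1046 bp of SPL3, and its acetylation cannot be told apart from that of SPL3.

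At SPL4 the S0 peak (chr1:19807038-19807732) was 695 bp wide, with its summit 961 bp past the TSS in the 3′ UTR and at percentile 35.1. The S8 peak (chr1:19806419-19807417) was 999 bp wide, with its summit at 808 bp in coding exon 2 and at percentile 47.3. The peaks overlapped by 380 bp, 54.7% of the S0 peak and 38.0% of the S8 peak, so the S8 peak reached further toward the TSS. The S8 summit also lay inside the annotated MIR156I hairpin on the other strand.

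At SPL5 the S0 peak (chr3:5140800-5141469) was 670 bp wide with its summit 1353 bp past the TSS, and at percentile 65.1 it was the highest ranked gene body peak of any member. The S8 peak (chr3:5140592-5141226) was 635 bp wide with its summit at 1400 bp and at percentile 26.0. The S0 summit lay in coding exon 1 and the S8 summit in intron 1, 47 bp apart. In the annotation used here a protein-coding gene on the opposite strand, AT3G15260, spans the whole of SPL5, and both summits therefore lay in both genes. By the rule these same peaks were also given to AT3G15260 at S0 and S8, and it had none at S2 or S4. Both summits lay nearer to the TSS of SPL5 than to that of AT3G15260.

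SPL9 and SPL15 encode closely related proteins of 375 and 354 amino acids that promote flowering and the adult rate of leaf formation. Each has 3 exons, SPL9 at chr2:17587169-17589671 on the plus strand and SPL15 at chr3:21444243-21446035 on the minus strand. SPL9 had an S0 peak (chr2:17587460-17587963) of 504 bp, the narrowest of the 16, with its summit 573 bp past the TSS in coding exon 1. Its fold enrichment stood at percentile 42.4 and its −log10 p at percentile 58.2. The S8 peak (chr2:17587404-17588033) was 630 bp wide with its summit at 633 bp, at percentile 28.5, and it contained the whole of the S0 peak. SPL15 had no peak at any stage. The nearest peaks lay 655, 873, 590 and 870 bp beyond its 3′ end at S0, S2, S4 and S8. Each of them sat from 308 to 471 bp past the TSS of AT3G57910, a gene on the other strand that runs across all of SPL15. This pair of related genes thus differed in a peak with its summit in coding exon 1 of SPL9 at 2 stages and none on SPL15.

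SPL2, SPL10 and SPL11 form a further subgroup, with proteins of 419, 396 and 393 amino acids and known roles in leaf shape and fertility. Each has 5 exons, and they lie at chr5:17360287-17363880 (SPL2, minus strand), chr1:9505112-9508542 (SPL10, minus strand) and chr1:9500892-9504023 (SPL11, plus strand). SPL10 and SPL11 are neighbours on chromosome 1 that point toward each other, with 1088 bp between them. At S4 the SPL10 peak (chr1:9507810-9508377) was 568 bp wide with its summit 315 bp past the TSS, in the 5′ UTR, at percentile 11.1. The SPL11 peak (chr1:9501122-9501701) at S4 was 580 bp wide with its summit 417 bp past the TSS, also in the 5′ UTR, at percentile 18.0. Their −log10 p values of 11.9 and 13.5 were near the list's lowest of 11.5, at percentiles 2.81 and 11.7. When lists were cut to equal length, the SPL10 peak was no longer in the list and that of SPL11 was. SPL2 had no peak at any stage, and the nearest one was 2262, 2325, 2310 and 2283 bp past its 3′ end at S0, S2, S4 and S8, on AT5G43260.

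SPL6 (chr1:26005068-26007368, plus strand, 4 exons), known for a part in immunity, had 1 peak, at S0 (chr1:26005148-26005936). It was 789 bp wide with its summit 437 bp past the TSS in the 5′ UTR, at percentile 19.7. Of the nearest peaks at other stages, none lay in the gene or its upstream 1 kb, and at S2, S4 and S8 the closest was 17560, 8426 and 8449 bp away. When every list was cut to 8608 peaks, the S0 peak of SPL6 and that of SPL3 were no longer in the S0 list.

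SPL13A (chr5:20582083-20584721, minus strand, 4 exons), which acts in the vegetative phase change, has a second copy, SPL13B (AT5G50670). Of the 32-base words of SPL13A and its upstream 1 kb, 100% occur again in the genome, against at most 0.769% for the gene bodies of the other 9 members, so reads from the copies cannot be assigned to one or the other. At S0 SPL13A had a peak (chr5:20582900-20584331) of 1432 bp with its summit 1052 bp past the TSS, in coding exon 2, at percentile 41.3. At S8 it had one (chr5:20583322-20584487) of 1166 bp with its summit at 831 bp, in the intron before it, at percentile 13.3. A second peak lay upstream, with its summit at −987, −896 and −920 bp from the TSS at S0, S4 and S8 and at percentiles 91.5, 94.0 and 55.4. The upstream summits lay in SAE1B (AT5G50580), a gene for a subunit of the SUMO-activating enzyme that is read in the other direction, from 268 to 359 bp past its TSS. At SPL13B the summits lay at 1069 and −973 bp at S0, −945 bp at S4, and 758 and −889 bp at S8, the same layout as at SPL13A. Without peaks on repeated sequence, 5, 0, 2 and 4 members had a peak at S0, S2, S4 and S8, beside 43.4%, 34.5%, 36.1% and 36.2% of all genes. Peaks on repeated sequence made up 2.13%, 0.546%, 1.77% and 1.85% of the lists of S0, S2, S4 and S8. The S2 list thus held the smallest share, and its part in the lack of an SPL13A peak at S2 was not tested. With the gene body alone the S4 count was 2, beside 32% of all genes.

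**Figure D2:**
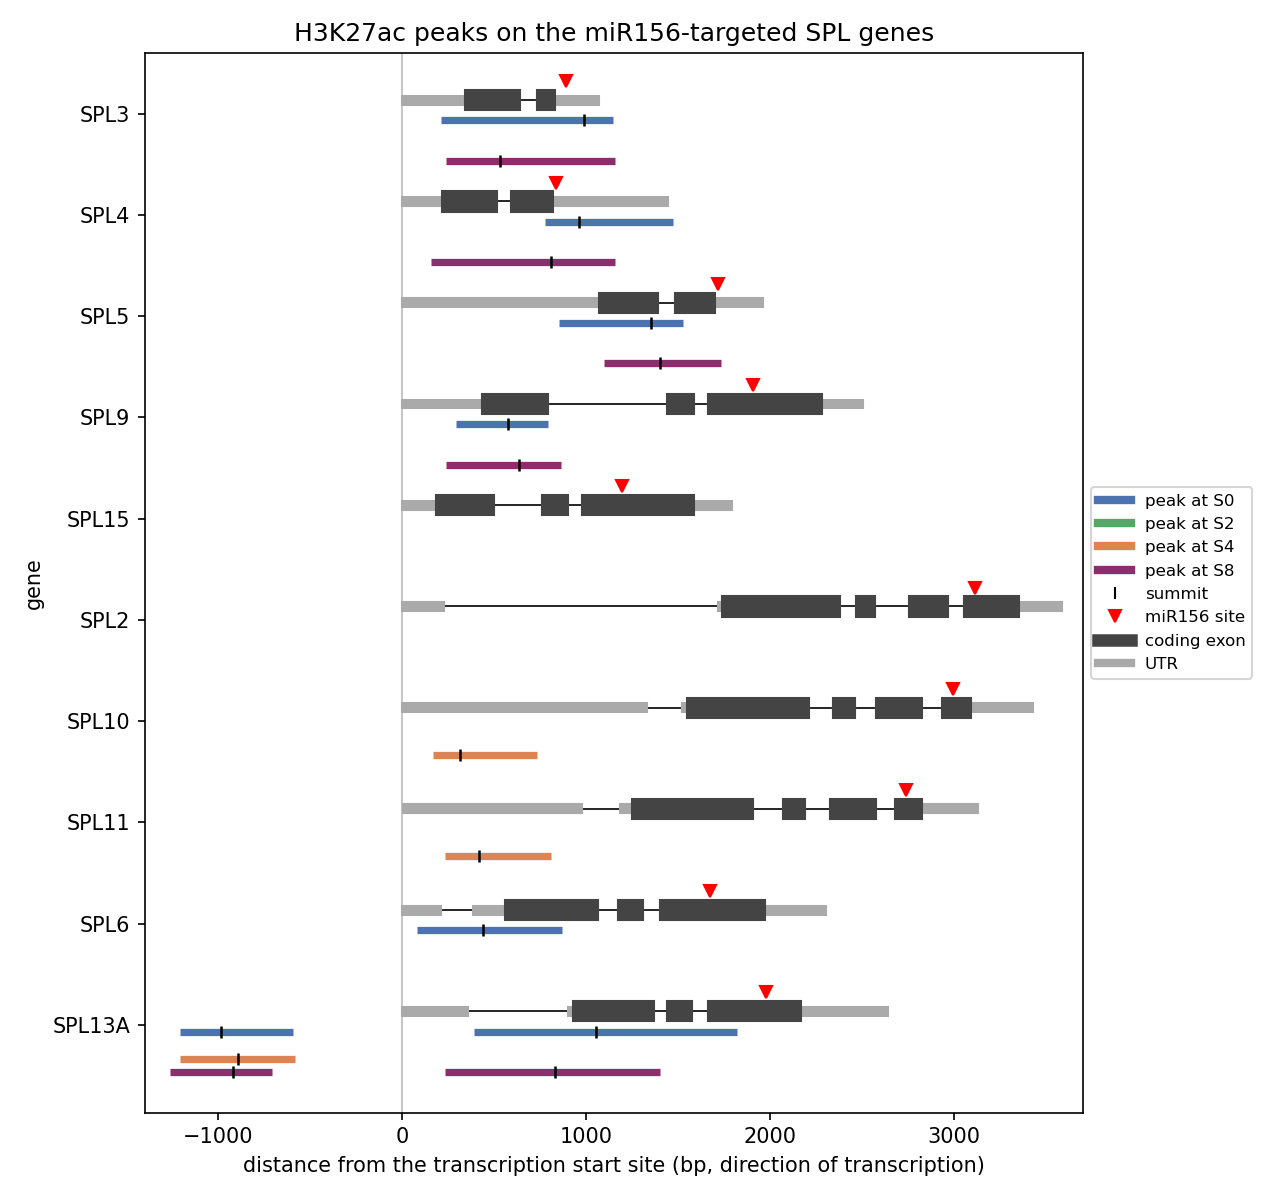
Peaks on the 10 genes drawn to scale, with distance from the TSS in bp on the horizontal axis and a row per gene. Dark boxes are coding exons, light boxes are UTRs, coloured bars are peaks by stage with the summit as a black tick, and red triangles are miR156 sites. The peaks of SPL10, SPL11, SPL6 and SPL9 lie toward the 5′ end, while those of SPL3, SPL4 and SPL5 reach the 3′ part of the gene.

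The peaks were set against the miR156 sites. Of the 6 peaks on SPL3, SPL4 and SPL5, 5 spanned the miR156 site, and the S0 peak of SPL5 ended 183 bp short of it. Of the 10 peaks of members with a coding site, 0 spanned it. Among these 10, 3 were the upstream peaks of SPL13A, which ended before its TSS and could not span the site. The gene body peaks among them ended from 143 bp (SPL13A at S0) to 2250 bp (SPL10 at S4) from the site. The site starts 877, 827 and 1706 bp past the TSS in SPL3, SPL4 and SPL5, and from 1182 bp (SPL15) to 3103 bp (SPL2) in the others, so the length of the gene and the place of the site moved together. Their separate parts in the overlap were not tested.

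In all 4 lists, summits inside protein-coding genes lay at a median of 389 to 404 bp past the TSS. The 13 gene body peaks of the members had a median of 808 bp, from 315 bp for SPL10 at S4 to 1400 bp for SPL5 at S8. For the 11 peaks of members with a single copy the median was 633 bp. The 25 peaks of the 6 SPL genes without a miR156 site had a median of 591 bp, so a summit past the median of the lists was not particular to the members. Of these 13 summits, 7 lay more than 800 bp past the TSS (SPL3 at S0, and SPL4, SPL5 and SPL13A at S0 and S8). Beyond 800 bp lay 14.3% of all intragenic summits at S0 and from 10.6% to 11.1% at S2, S4 and S8. Peaks of 1 gene at several stages are not independent of each other, and the 13 peaks come from 8 genes.

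The 6 SPL genes without a miR156 site were set beside the members. They include SPL7, the regulator of copper homeostasis, SPL8, which acts in anther development, and the long proteins SPL1, SPL12, SPL14 and SPL16. All 6 had a peak at each of the 4 stages, where 6, 0, 3 and 5 of the 10 members did. The best ranked peak per gene had a median percentile of 38.8, 18.0 and 28.5 over the members at S0, S4 and S8, against 86.0, 62.1 and 84.7 over the 6 other SPL genes. Without SPL13A, whose best ranked peaks lay in SAE1B, the medians over the members were 35.1, 14.6 and 27.4. At S2, where no member had a peak, the others ran from percentile 4.02 (SPL12) to 96.1 (SPL14). SPL12 at S2 was thus the one that stood near the bottom of a list.

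Of the 11 peaks on the 9 members with a single copy, 10 stood below percentile 50, against 4 of the 25 peaks on the other SPL genes. The fold enrichment of those 11 peaks ran from 2.36 (SPL3 at S0) to 3.64 (SPL5 at S0), while the median of all peaks was 3.21, 3.07, 2.9 and 2.92 in the lists of S0, S2, S4 and S8. The widths of those 11 peaks ran from 504 to 999 bp with a median of 670 bp, against 232 to 2654 bp with a median of 1280 bp for the other SPL genes. The other SPL genes are themselves longer, from 2279 to 4971 bp, and the part of gene length in these differences was not tested. With the 50% of each list that had the highest −log10 p, 3, 0, 1 and 0 members had a peak at S0, S2, S4 and S8, against 6, 5, 4 and 6 of the other SPL genes. SPL13A was the member at S4 and was among the 3 at S0, both times only through its upstream peak in SAE1B. Of all protein-coding genes, 23.7%, 17.9%, 18.8% and 19.1% had one under this limit, which by itself lowers every count.

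**Figure D3:**
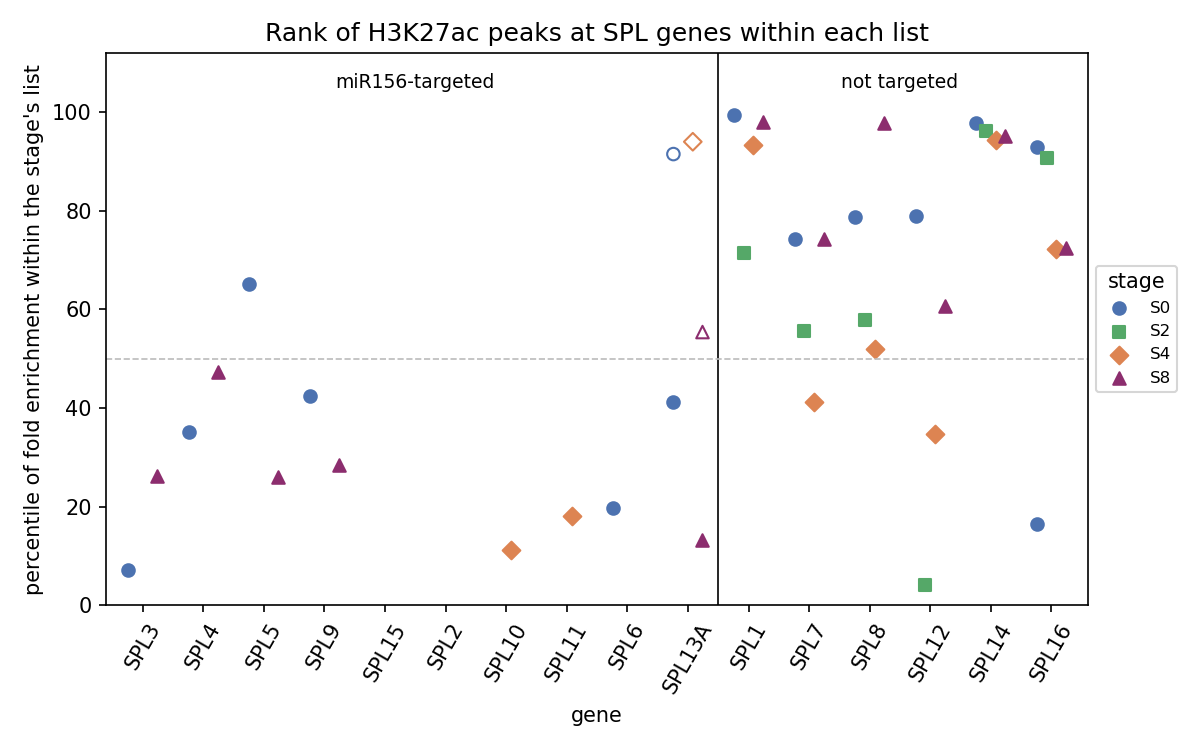
Percentile of each peak's fold enrichment within the list of its stage (vertical axis) for the members (left of the line) and the other SPL genes (right), with the stage given by colour and shape. Filled symbols have the summit in the gene body and open symbols upstream, and the dashed line marks percentile 50. Of the filled member symbols, that of SPL5 at S0 (65.1) is the one above the dashed line.

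**Figure D4:**
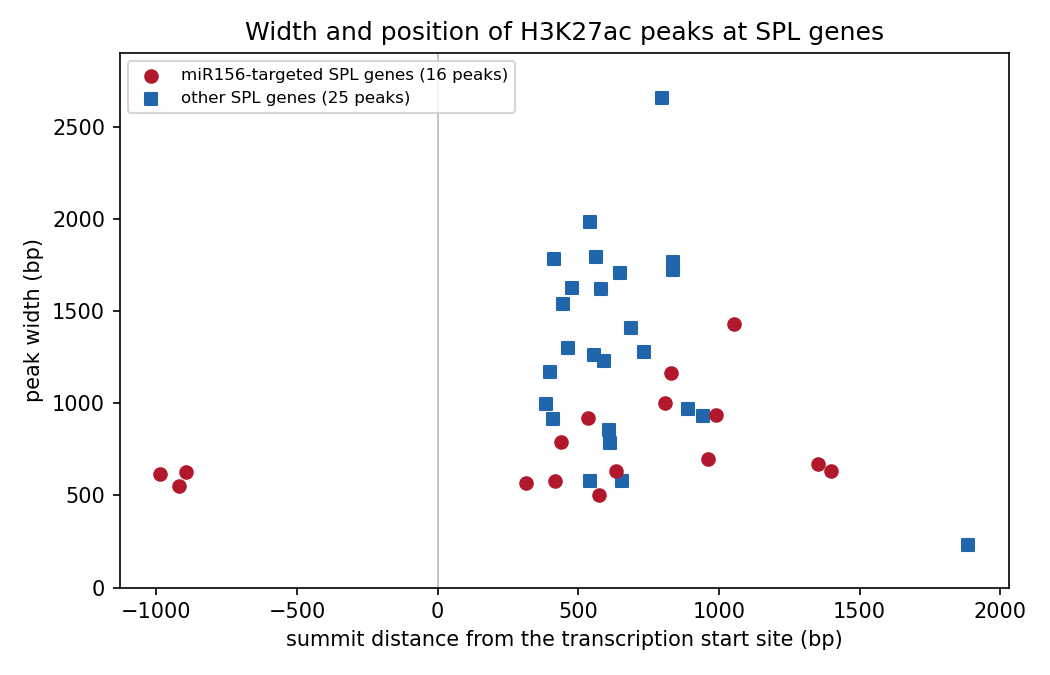
Peak width (bp, vertical axis) against the distance of the summit from the TSS (bp, horizontal axis) for the 16 peaks of the members (red circles) and the 25 peaks of the other SPL genes (blue squares), all stages together. The 3 peaks before the TSS are those of SPL13A, and the widest of the other SPL genes is 2654 bp.

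The genes around the members in the miR156 pathway were counted by the same rule. None of the 8 genes MIR156A to MIR156H had a peak at any stage. The rule also gave MIR156I the SPL4 peaks of S0 and S8, whose summits lay upstream of its hairpin at S0 and in it at S8, and gave MIR156J none. Of the 5 genes MIR172A to MIR172E, whose products repress AP2-type floral repressors, MIR172B had a peak at S0 (1145 bp, percentile 57.3) and MIR172D at S2 (318 bp, percentile 27.6). These genes are annotated as hairpins only, so a peak near a more distant start of the primary transcript would not be counted.

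Of 7 genes known as targets of SPL proteins, 4, 4, 4 and 2 had a peak at S0, S2, S4 and S8, beside 43.8%, 34.5%, 36.4% and 36.6% of all genes. FUL and AGL42, MADS-box genes of the flowering pathway, had peaks at S0, S2 and S4 and none at S8. SOC1, which integrates flowering signals, had one at S0 alone. LFY, the floral meristem identity gene, had peaks at S2, S4 and S8 and none at S0. Its only S8 peak stood at percentile 2.83, with its summit 2463 bp past the TSS of LFY. That summit lay in LFY but nearer to the TSS of AT5G61865, at 599 bp. The same held for an S4 peak with its summit at 2338 bp, while another S4 peak had its summit at 1136 bp. AP1 had one at all 4 stages, with each summit in coding exon 1 or intron 1. The transgene holds the AP1 promoter and the AP1 coding sequence. Reads from sequence present in both places cannot be told apart. TCL1 and TRY, repressors of trichome formation, had none at any stage. At S2, when no miR156-targeted SPL gene had a peak, LFY, AP1, FUL and AGL42 each did, and SOC1, TCL1 and TRY did not. These S2 peaks stood at percentiles 9.79 (LFY), 0.453 (AP1), 89.5 (FUL) and 95.4 (AGL42) by fold enrichment.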

How the data were processed

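The authors aligned the ChIP-seq reads to TAIR10 with Bowtie (version 1.1.2), where a read with several possible places could be kept at a single one, and removed duplicates with Picard (version 2.60). They called peaks with MACS2 (version 2.1.0) against input and kept those reproducible between both replicates, giving a single list per stage. The deposited lists give each peak's start, end and summit, its fold enrichment over input (a ratio) and its −log10 p. These values served only to order the peaks of each list, with ties at their average rank. Library depth is unknown, and the input libraries have no list of their own.

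Gene positions were those of RefSeq for TAIR10.1, whose gene models are newer than those of TAIR10, and 0 peaks ran past a chromosome end. The positions were read with Python (version 3.11.15) and pandas (version 2.3.3), and the assignment was tested on simulated data. A gene with several peaks was ranked by the one with the highest fold enrichment. Sites of miR156 were the ungapped match with fewest mismatches in the transcript with the longest coding sequence. A summit was on repeated sequence where at least 50% of the 32-base words within 201 bp around it occur again in the genome. All 10 members are named. The other lists (the copy SPL13B, SPL genes without a site, miRNA genes, SPL targets and stage markers) are given by counts and examples. The members and lists were chosen with earlier results of these data known. Alternatives tried were the peak midpoint, any overlap, the gene body alone, 2 kb upstream, the nearest TSS, lists of equal length, the upper 50% of each list, joining peaks within 500 bp, leaving out repeated sequence, and other ranks.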

Additional observations from a re-analysis of the deposited data

How the results depend on the processing

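Of 63 recounts of the members with a peak, 7 differed by more than 1.5 times from the count reported. Keeping the upper 50% of each list by −log10 p gave 3 members at S0, 1 at S4 and 0 at S8, beside 23.7%, 18.8% and 19.1% of all genes. It also gave 3 members with a peak at S0 and none at S8, and 7 with no peak at any stage. SPL13A was in these S0 and S4 counts only through its upstream peaks in SAE1B. Lists cut to equal length gave 0 members with a peak at S0 and none at S8, and 4 with no peak at any stage. With 2 kb upstream, SPL11 gained a peak at S0 and S8, for counts of 7 and 6, beside 49.0% and 41.3% of all genes. The count at S2 was also 0 with the midpoint, any overlap, 2 kb upstream and the nearest TSS. The other alternatives only remove or merge peaks and could not raise it. Among 53 single percentiles, 37 moved by more than their counting interval, and SPL3 at S0 stood at 43.1 by fold enrichment times width, against 7.17 by fold enrichment. No paired analysis was possible because each list pools both replicates, and for the same reason no replicate could be left out. Presence in a list depends on its floor, and 1 gene in a list of pooled replicates has no error of its own.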
